A study of Mus musculus with 2 samples.

Results

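The cells described here were thymic epithelial cells (TECs) with much Aire RNA, little or no S100a8 and S100a9 RNA and few transcripts of dividing cells. They were chosen cell by cell from counts of unique molecular identifiers (UMIs, each marking a captured RNA molecule), scaled to 10000 UMIs of the cell. A member held at least 5 Aire, under 2 S100a8 plus S100a9, under 4 Mki67 plus Top2a, under 6 for the Mcm genes from Mcm2 to Mcm7 summed, under 15 Psmb11 plus Prss16 and under 5 Avil plus Trpm5. The last 4 of these limits leave out cells in mitosis, cells copying their DNA, cortical TECs and tuft cells. Of 8303 cells kept after limits on detected genes and mitochondrial UMIs, 1143 (13.8%) were members of this Aire-high set.

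The mice were female C57BL/6, either untreated or taken 15 days after whole-body irradiation at a sublethal dose, and the sort took EpCAM+ cells without CD45 or the erythroid marker TER119 from digested thymus. The labels give an age of 9 weeks in the sample fields and 4 weeks in the protocol. Each condition had 1 library, made from a pool of 3 mice, so no difference between the conditions could be tested and the intervals below cover counting error only. Those on levels and shares are exact 95% intervals. Those on log2 ratios join opposite ends of such intervals and are wider than 95%. The libraries are called Contl and Rad here, after their files, because the labels name them the other way round: the sample labelled radiation holds the Contl file and the sample labelled control holds the Rad file. The filter kept 3233 Contl and 5070 Rad cells. The paper gives these same counts for its filtered control and irradiated TECs, in the order of the file names. By the labels, every direction between the libraries given below would be reversed.

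The Contl library held 58185309 UMIs in 4937 barcodes and the Rad library 82201657 UMIs in 7167 barcodes. Members numbered 435 of the kept Contl cells, or 13.5% (12.3 to 14.7), and 708 of the kept Rad cells, or 14% (13 to 14.9). The log2 ratio of these shares, Rad over Contl, was 0.05 (-0.17 to 0.28), an interval that covers counting error only and includes 0. A member had a median of 19186 UMIs and 4506 detected genes in the Contl library and of 16239 UMIs and 4137 genes in the Rad library. Mitochondrial transcripts made up a median of 5.67% and 5.58% of its UMIs. Of the barcodes, 17 occurred in both libraries, and 1 member had such a barcode.

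Medullary TECs (mTECs) show developing T cells the proteins of other organs. Aire, the autoimmune regulator, is a nuclear protein that lets these cells transcribe otherwise silent tissue-specific antigens (TSAs), each in a small share of the cells. Peptides of these proteins are presented on MHC molecules, which leads to deletion or diversion of self-reactive thymocytes. Aire+ mTECs arise from dividing precursors, stop dividing, and later lose Aire and turn into post-Aire and mimetic cells that resemble keratinocytes, enterocytes, tuft cells and other peripheral types.

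Aire lies on chromosome 10 (78030022 to 78043610, minus strand, GRCm38). Its promoter window and that of H2-Aa, which encodes the alpha chain of the class II molecule I-A, are shown because they are among the markers given for this population, though neither is particular to it. The window of Cdkn1a is shown because this gene had the widest difference between the libraries among the listed p53 targets. Each window runs 5′ to 3′ from 250 bases before to 50 bases after a start given by RefSeq on GRCm38.p6. Capitals mark TATAAA for Aire (chr10:78043561-78043860, minus strand), the Y box letters CTGATTGG for H2-Aa (chr17:34287774-34288073, minus strand) and CATGNNNNNNCATG, a spaced pair of p53 half-site cores, for Cdkn1a (chr17:29090729-29091028, plus strand).
Aire: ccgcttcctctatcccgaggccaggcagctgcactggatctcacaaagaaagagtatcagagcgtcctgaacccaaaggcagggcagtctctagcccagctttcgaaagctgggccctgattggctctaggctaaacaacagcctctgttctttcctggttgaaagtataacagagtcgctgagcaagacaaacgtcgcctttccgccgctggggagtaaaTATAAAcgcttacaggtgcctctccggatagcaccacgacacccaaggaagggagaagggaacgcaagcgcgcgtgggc
H2-Aa: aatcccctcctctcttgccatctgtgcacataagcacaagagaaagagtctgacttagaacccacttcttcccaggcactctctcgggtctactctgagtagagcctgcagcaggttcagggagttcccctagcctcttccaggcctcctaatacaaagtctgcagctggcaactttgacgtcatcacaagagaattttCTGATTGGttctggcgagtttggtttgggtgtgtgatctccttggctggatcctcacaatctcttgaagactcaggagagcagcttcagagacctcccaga
Cdkn1a: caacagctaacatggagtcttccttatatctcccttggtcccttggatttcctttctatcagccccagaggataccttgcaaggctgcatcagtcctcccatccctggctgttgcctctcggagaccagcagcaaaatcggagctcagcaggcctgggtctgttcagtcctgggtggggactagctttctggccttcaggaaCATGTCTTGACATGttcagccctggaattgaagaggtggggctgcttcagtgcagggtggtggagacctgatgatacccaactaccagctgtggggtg
Searched on both strands, TATAAA was in 13.6% of 32851 promoter windows of this length, CTGATTGG in 4.10% and CATGNNNNNNCATG in 0.712%. The marked letters began 29 bases before the start for Aire, 51 for H2-Aa and 48 for Cdkn1a. TATAAA was in 2 of 6 windows of the 5 markers (Aire and Hes6). CTGATTGG was in 3 of 15 windows of the MHC class II list (H2-Aa, H2-Eb1 and H2-Oa), from 12 of its 15 genes that matched. The Aire window also holds CTGATTGG, left in lower case above. CATGNNNNNNCATG was in 1 of 21 windows of the p53 target list, from 15 of 20 genes. A window at another listed Cdkn1a start (chr17:29093519-29093818, plus strand) held no match to these letters. These matches describe the sequence only.

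Aire itself, on which the cells were chosen, ran in single members from the limit of 5 up to 61.1 UMIs per 10000 in the Contl library (median 11.6) and up to 45.7 in the Rad library (median 12.0). Over the members' summed UMIs it stood at 13.3 per 10000 (13.1 to 13.6) and 13.5 (13.3 to 13.7). The limit cut a continuous range: 19 Contl and 26 Rad members lay within 0.5 above it, and 13 and 27 otherwise matching cells lay within 0.5 below it. S100a8 and S100a9, which encode the subunits of calprotectin, had no UMI in 81.4% of Contl and 79.1% of Rad members.

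The nearest cells served for comparison. The S100a8/S100a9 set, 212 Contl and 349 Rad cells, met every limit but that on S100a8 plus S100a9, with medians of 22.3 and 20.2 per 10000 for their sum. The dividing set, 88 and 196 cells, met the limits on Aire, S100a8 plus S100a9, cortical and tuft genes and failed one on division genes. The Aire-low set, 270 and 418 cells, held 1 to under 5 Aire per 10000 and met the other limits. Since all sets were cut from the same measured values, differences between them are given as descriptions, with no test.

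**Figure D1:**
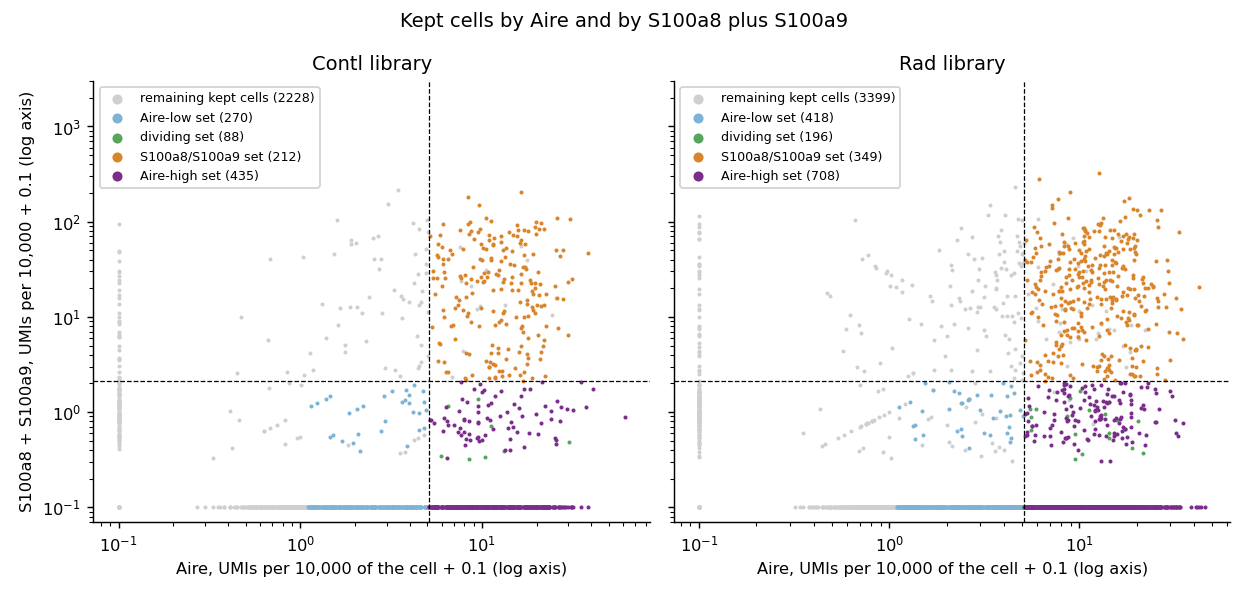
Aire (x axis) against S100a8 plus S100a9 (y axis) in each kept cell, in UMIs per 10000 of the cell on log axes, for the Contl and Rad libraries. Dashed lines mark the limits of 5 and 2, and the 435 and 708 members fill the lower right, most of them without an S100a8 or S100a9 UMI.

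Of the other markers of this population, H2-Aa, Fezf2 and Hdc were high in the set and Hes6 was not. H2-Aa stood at 98.3 per 10000 in Contl members (97.7 to 99.0) and 100.4 in Rad members (99.8 to 101), against 56.8 and 57.0 in all other kept cells. Fezf2, a transcription factor that drives its own group of TSAs, stood at 7.24 and 7.49, against 2.85 and 2.64. Hdc, which makes histamine from histidine, stood at 6.95 and 6.19, against 1.70 and 1.54. Hes6, a member of the Hairy family of regulators, stood at 1.74 and 1.95, against 1.99 and 2.32. Aire was used to choose the cells and so says nothing of the name. Fezf2, Hdc and H2-Aa were above the rest of the kept cells, and Hes6 was not. In the S100a8/S100a9 set Hdc stood at 7.76 and 7.03 and H2-Aa at 109 in each library, above the members, and Fezf2 at 5.74 and 5.36, below them.

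After each member was thinned to 4000 UMIs, 98.2% of members in each library still held Aire. Fezf2 was found in 80.0% of Contl members (75.9 to 83.7) and 79.4% of Rad members (76.2 to 82.3), and Hdc in 77.2% and 72.0%. Without thinning, Fezf2 was found in 96.1% and 93.5% and Hdc in 92.0% and 90.0%. Free RNA gives UMIs in cells that do not express a gene. The 161 Contl and 161 Rad cells past the tuft limit served as a rough measure of it. Their median depths were 13713 and 10759 UMIs before thinning. Aire+ mTECs can turn into tuft cells, so these cells may hold such RNA of their own, which was not tested. In these, thinned alike, Aire was found in 5.59% and 11.8%, Hdc in 6.83% and 8.07%, and Fezf2 in 14.3% and 19.9%. Hes6 was found in 31.3% of Contl and 33.1% of Rad members and in 29.8% and 36.0% of tuft-limit cells. Its share in members was thus slightly above that measure in the Contl library and below it in the Rad library.

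**Figure D2:**
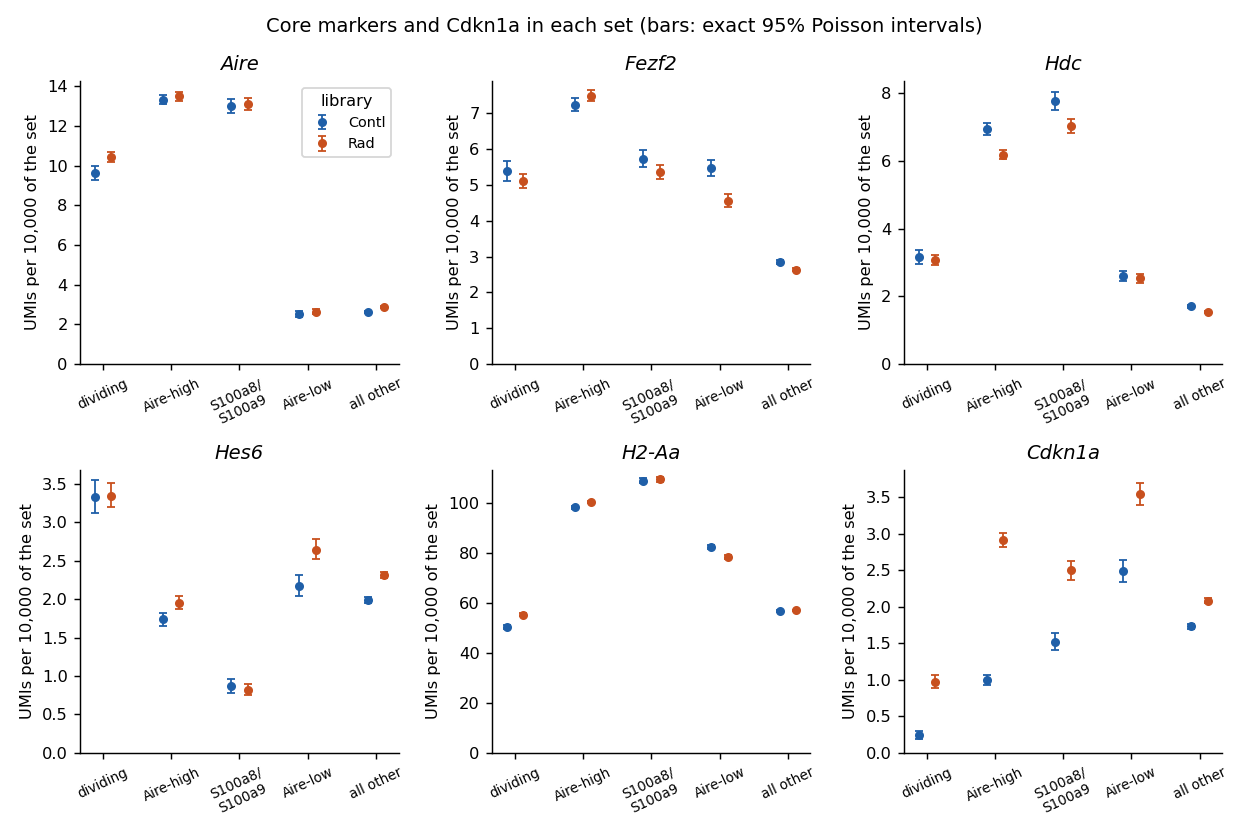
Levels of the 5 markers and Cdkn1a in UMIs per 10000 of each set's summed UMIs (y axis) in the 5 sets of cells (x axis), for the Contl and Rad libraries, with exact 95% Poisson intervals. Hes6 is highest in the dividing set, lower in the members and lowest in the S100a8/S100a9 set, and the Rad point for Cdkn1a lies above the Contl point in every set.

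Among the 10 genes that set the members furthest above all other kept cells, by the smaller of the libraries' log2 ratios, were Nptx2, Psors1c2, Aire, Thrsp, Crhbp, Gm48239, Il13, Hdc and Gm36899. Aire was fixed by the choice of cells. None of these genes was among the 10 furthest above the S100a8/S100a9 set, where Hdc stood above the members at 7.76 and 7.03 per 10000. Il13, a type 2 cytokine of immune cells, stood at 3.10 per 10000 in Contl and 2.54 in Rad members, against 0.742 and 0.631 in all other cells. Thrsp, a gene of lipid synthesis, stood at 2.92 and 2.54, against 0.626 and 0.485.

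Against the S100a8/S100a9 set, the members had a like Aire level and lower levels of many antigen genes. The S100a8/S100a9 set held 13 Aire per 10000 in the Contl and 13.1 in the Rad library. Of 14009 genes with at least 50 UMIs in the members of both libraries together, 258 (1.84%) were higher in the members by at least 1.5-fold in each library, and 981 (7%) were lower. Among genes at 1 or more per 10000 in the higher set, the 10 furthest above included Wfdc18, Stmn1, Hes6, Sox4, Tubb2b, Cdk4, Ccnd2, Gas6 and Hmgb1.

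Some of these, such as Hes6 and Ccnd2, stepped down from the dividing set to the members to the S100a8/S100a9 set. Hes6 stood at 3.33, 1.74 and 0.863 per 10000 in these 3 sets in the Contl library and at 3.35, 1.95 and 0.822 in the Rad library. Ccnd2, a D-type cyclin that drives cells into the cycle, stood at 10.7, 7.67 and 4.46, and at 10.7, 8.52 and 4.11. These genes were picked for standing above the S100a8/S100a9 set, so that step is fixed by the choice. The Aire-low set was not at one end of this order, with Hes6 at 2.18 and 2.65.

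Transcripts of the cell cycle remained low but present. Of 18 measured genes of G2 and mitosis, 5 (Ccnb2, Ccna2, Birc5, Ube2c and Cdc20) were higher in the members than in the S100a8/S100a9 set in each library and none was lower, beside 1.84% and 7% of all genes. Of 19 genes of DNA replication, Fen1 was higher and none was lower, beside Mcm6 and Mcm7, which belong to the sum used to choose the sets. The 20 listed G2 and mitosis genes, 2 of which were used to choose the members, summed to 4.73 per 10000 in Contl and 4.74 in Rad members, against 3.68 and 3.97 in the S100a8/S100a9 set and 60.4 and 66.4 in the dividing set. Of 15 genes in a list of cell cycle regulators (inhibitors and D-type cyclins among them), 3 were higher in members than in dividing cells in each library (Cdkn1a, Cdkn1c and Cdkn2b) and 3 were lower (the inhibitor genes Cdkn2c and Cdkn2d and the cyclin gene Ccnd1), beside 28.6% and 9.87% of all genes.

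Antigen genes ran the other way. Of 24 measured genes in a list of antigens taken as Aire dependent, 13 were lower in the members than in the S100a8/S100a9 set in each library and 1, Wfdc18, was higher, beside 7% and 1.84% of all genes. Csn2, which encodes the milk protein beta-casein, stood at 12.3 per 10000 in Contl and 12.1 in Rad members, against 20.5 and 21.4 in the S100a8/S100a9 set and 1.33 and 1.72 in the dividing set. Ins2, an insulin gene, stood at 0.141 and 0.160, against 0.372 and 0.434 in the S100a8/S100a9 set. Iapp, the islet hormone amylin, stood at 0.311 and 0.254, against 1.33 and 1.70. Wfdc18, which encodes a secreted protein of the whey acidic type, was unlike these: it stood at 4.48 and 5.39 in the members but at 16.8 and 18.2 in all other kept cells.

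Beside S100a8 and S100a9, on which the sets were cut, the 10 genes furthest below the S100a8/S100a9 set were Iapp, Rhox12, Dcpp1, Serpinb12, Ccl1, Calb2, Pcp4 and Apod. Of 18 genes of enterocyte-like and secretory cells, 7 were lower in the members (Fabp1, Fabp2, Saa1, Ccl20, Gp2, Reg3g and Bpifa1) and none was higher, beside 7% and 1.84% of all genes. Reg3g, a secreted antibacterial lectin, stood at 5.20 and 4.38, against 8.87 and 9.97. Transcripts named for other cells moved with these: 4 of 15 thymocyte genes (Cd8a, Dntt, Arpp21 and Thy1), 3 of 9 dendritic, macrophage and B cell genes (the myeloid genes Itgam and C1qb and the B cell gene Cd79a) and 3 of 5 erythroid genes were lower in the members and none was higher, beside the same shares. Also lower were 2 of 6 genes of endothelium and mesenchyme (Pecam1 and Acta2) and 5 of 14 keratinocyte-like genes, with none higher. The 18 thymocyte genes summed to 1.64 and 1.35 per 10000 in members and to 2.69 and 2.17 in the S100a8/S100a9 set. Their part in the antigen differences was not tested.

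None of 14 genes of MHC class II presentation, 11 of class I presentation or 19 of RANK, CD40 and noncanonical NF-kB signalling passed 1.5-fold between the members and the S100a8/S100a9 set in each library. Tnfrsf11a, which encodes the receptor RANK, stood at 1.58 per 10000 in Contl and 1.55 in Rad members, against 1.57 and 1.68. Of 11 costimulatory and checkpoint genes, Cd200 was lower in the members and none was higher. The shares of all genes beside these counts were 7% lower and 1.84% higher.

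The number of antigens in a cell was counted as well. The list of Aire-dependent TSAs supplied with the study was held here only in part, with 1999 names, of which 1853 matched. A Contl member thinned to 4000 UMIs held UMIs of a median of 20 listed genes (quartiles 11 and 31) and a Rad member of 17 (10 and 27). Cells of the S100a8/S100a9 set held 34 and 31, Aire-low cells 16 and 14, and dividing cells 7 and 6.5. The listed genes together made up 124 UMIs per 10000 in Contl and 112 in Rad members, 212 and 199 in the S100a8/S100a9 set, 129 and 112 in the Aire-low set, and 27.3 and 27.8 in the dividing set. The members thus held more listed genes per cell than Aire-low cells, at a summed level that was no higher.

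**Figure D3:**
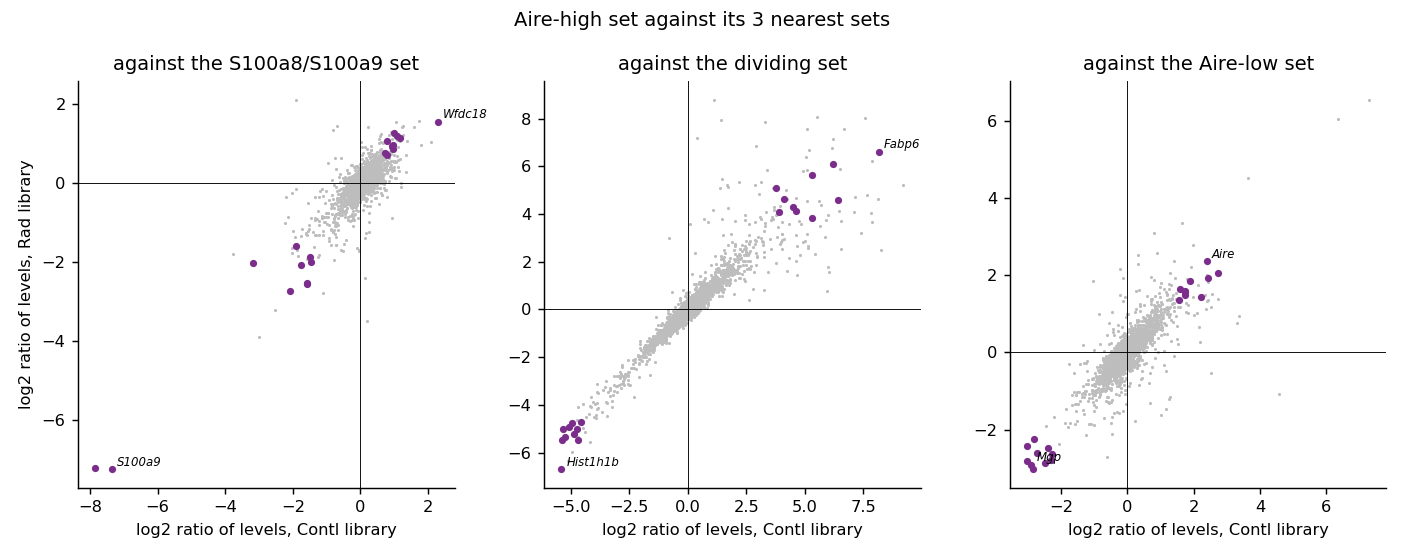
log2 ratio of each gene's level in the members over its level in a nearest set, in the Contl (x axis) and Rad (y axis) libraries, for the S100a8/S100a9, dividing and Aire-low sets. Small points are genes that reached 0.5 UMIs per 10000 in each library in the members, the S100a8/S100a9 set or the dividing set, and the large points are the 10 genes furthest above and the 10 furthest below, such as Wfdc18 at 2.28 and 1.53 against the S100a8/S100a9 set.

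Against the dividing set, 4007 of the 14009 genes (28.6%) were higher in the members in each library and 1383 (9.87%) were lower. Of the 24 Aire-dependent antigens 21 were higher, of 14 class II genes 8 were higher, of 11 costimulatory and checkpoint genes 7 were higher, and of 19 chemokines and cytokines 14 were higher. H2-Ab1, the beta chain that pairs with H2-Aa, stood at 90.6 per 10000 in Contl and 89.7 in Rad members, against 47.9 and 50.5 in dividing cells. Ccl25, a chemokine that draws thymocyte precursors, stood at 7.17 and 4.56, against 0.261 and 0.347. All 15 thymocyte genes and all 9 dendritic, macrophage and B cell genes were higher too. So were 4 of 6 genes of endothelium and mesenchyme, 4 of 5 erythroid genes and 7 of 8 tuft genes. Dividing cells were deeper, with a median of 34238.5 UMIs in the Contl and 26423 in the Rad library, against 19186 and 16239 in members. The part of these genes, and of this depth, in the other counts was not tested. All 19 replication genes and all 18 genes of G2 and mitosis were lower, as the choice of the sets fixes for Mki67, Top2a and the Mcm genes.

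Against the Aire-low set, 1384 genes (9.88%) were higher in the members and 1226 (8.75%) lower. Crhbp, Nptx2, Thrsp, Tbc1d4, Rprm and Fgf21 were among the 10 furthest above, with Aire fixed by the choice of cells. Fgf21, a hormone of liver and fat, stood at 12.1 per 10000 in Contl and 13.5 in Rad members, against 4.13 and 5.29. Ccl21a, a chemokine of other mTECs whose near-identical copies make its count uncertain, stood at 2.08 and 3.47, against 13.8 and 21.1, and Mgp, Tagln, Ccl11, Apoe and Igfbp5 were also among the 10 furthest below. Of 17 interferon response genes 9 were lower in the members and none higher, of 16 Notch genes 8 were lower, and of 12 keratins 6 were lower. Isg15, an interferon-induced modifier, stood at 0.414 and 0.303, against 1.19 and 1.30. Krt5, a keratin of basal epithelium, stood at 0.788 and 1.65, against 4.29 and 6.14. Transcripts named for other cells moved too. Higher in the members were 5 of 9 dendritic, macrophage and B cell genes and 3 of 15 thymocyte genes. So were 3 of 6 genes of endothelium and mesenchyme and 2 of 5 erythroid genes, and Ptprc and Acta2 were lower. Of 11 genes of Ccl21a-high mTECs, 6 were lower and 1 was higher. Of 18 genes of enterocyte-like and secretory cells, 8 were lower and none was higher. Their part was not tested.

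Within the set, cells with more Aire held fewer transcripts of most measured genes of G2 and mitosis. The members were divided at 10 and 20 Aire UMIs per 10000, which gave 171, 187 and 77 Contl cells and 262, 328 and 118 Rad cells. Between the highest and the lowest of these bands, 555 of 14009 genes (3.96%) were higher by 1.5-fold in each library and 925 (6.6%) lower. Of the 18 genes of G2 and mitosis 12 were lower in the highest band, among them Ccna2, Cdc20 and Hmgb2. Mki67 and Top2a, which were used to choose the members, were not among the 12. Some of the 12 rest on few UMIs, with 33 of Ccna2 and 16 of Aurka in the lowest Contl band. Hmgb2, a chromatin protein of dividing cells, stood at 2.13, 1.34 and 0.801 per 10000 from the lowest to the highest Contl band and at 2.06, 1.08 and 0.928 in the Rad bands. Wfdc18 stood at 6.96, 2.89 and 2.87 and at 9.31, 3.56 and 1.67. Icosl, a costimulatory ligand, ran upward, at 1.38, 2.04 and 2.26 and at 1.40, 1.87 and 2.23. Csn2 had no single direction, at 13.4, 10.1 and 15.3 and at 11.9, 11.3 and 15.3. Of the genes named for other cells, 3 of 9 dendritic, macrophage and B cell genes (C1qa, Lyz2 and Csf1r) and 2 of 15 thymocyte genes (Thy1 and Cd3e) were higher in the highest band, and 4 of 11 genes of Ccl21a-high mTECs, 2 of 6 of endothelium and mesenchyme and 1 of 5 erythroid genes were lower. Their part was not tested.

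Some genes, the antigen gene Gcg among them, were spread very unevenly over the members. Over genes with at least 50 UMIs, the variance of the thinned counts over their mean had a median of 1.12 in each library, and 1218 genes were above 2 in both. Ranked by the smaller of the libraries' ratios among genes with at least 100 UMIs, the top 10 were Malat1, Gm42418, Fabp4, Tmsb4x, Dppa3, Wfdc18, Hba-x, Pyy, Xcl1 and Ly6g. Malat1, a nuclear RNA, and Tmsb4x, an actin-binding protein, were found in nearly every member. Xcl1, a chemokine that draws dendritic cells, had 404 UMIs in 2.99% of Contl and 454 in 1.41% of Rad members, and the 1% of members with most of it held 97.8% and 99.6% of those UMIs. Csn2 was found in 88.0% and 82.3% of members, with 12.0% and 9.09% of its UMIs in the highest 1%. Gcg, the glucagon gene, was found in 7.36% and 5.08%, with 86.3% and 64.1% in the highest 1%. H2-Aa was found in every member, with 3.31% and 4.07% in the highest 1%.

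**Figure D4:**
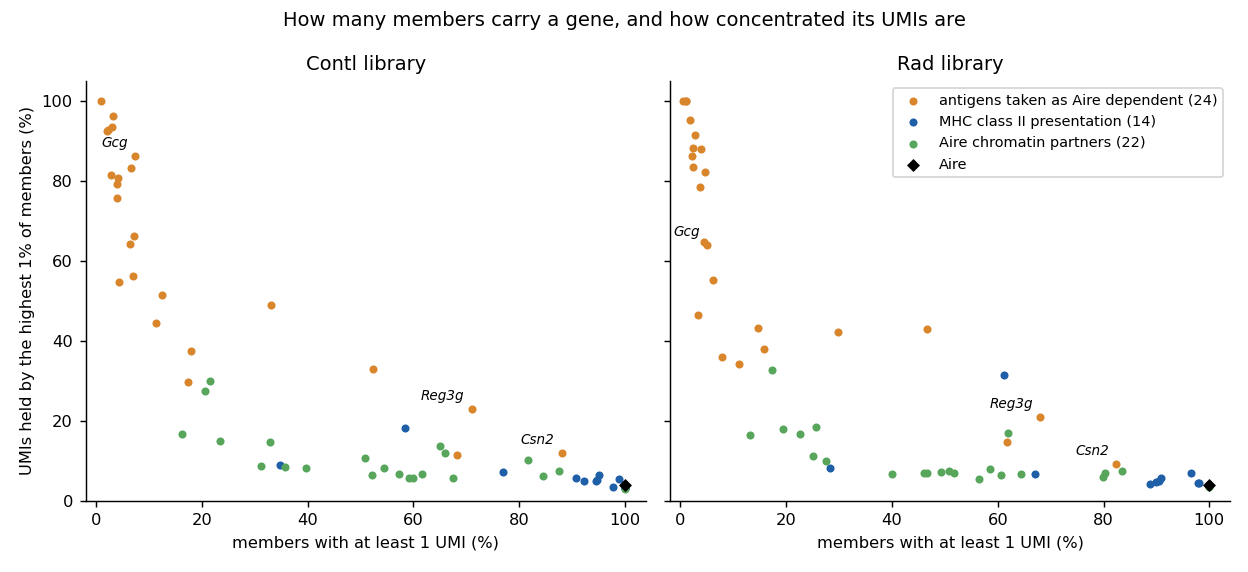
Share of a gene's UMIs held by the 1% of members with most of it (y axis, percent) against the share of members with any UMI of it (x axis, percent), for 24 antigens taken as Aire dependent, 14 genes of class II presentation, 22 genes of the chromatin partners of Aire and Aire itself, in each library. Antigens found in few members, such as Gcg, have most of their UMIs in a handful of cells, and Csn2 and most class II genes lie at the lower right.

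Between the libraries, 664 of the 14009 genes (4.74%) were higher in Rad members by at least 1.5-fold, 1089 (7.77%) were lower, and 12.5% were past it in either direction. The median log2 ratio of all these genes was -0.03. The balance turned without the 5 highest cells of each gene, to 605 higher and 347 lower. The genes at the extremes were mostly carried by few cells. Il9, a cytokine gene, had 6 UMIs in 4 Contl members and 249 in 6 Rad members, and 1 Rad cell held 58.6% of them. Tac1, the precursor of substance P, had 690 UMIs in 9 Contl members and 57 in 19 Rad members, and 1 Contl cell held 64.3%. Of the 10 highest and 10 lowest ratios among genes with at least 200 UMIs, Psrc1, a microtubule-binding protein, was spread over the most Rad cells: 56 UMIs in 9.89% of Contl members and 262 in 18.5% of Rad members, a log2 ratio of 1.74 (1.19 to 2.32). When the 1% of members with most UMIs of a gene were left out, 926 of 11965 genes were past 1.5-fold, and of the 1753 genes past it before, 780 still had enough UMIs, of which 196 were still past it on the higher and 399 on the lower side.

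Some targets of p53, the transcription factor that answers DNA damage, were higher in the Rad library and most did not pass 1.5-fold. Cdkn1a, the cell cycle inhibitor p21, had 849 UMIs in Contl members and 3454 in Rad members, or 0.999 (0.933 to 1.07) and 2.91 (2.82 to 3.01) per 10000, a log2 ratio of 1.54 (1.40 to 1.69). These intervals are over UMIs and leave out the spread between cells and mice. Bax, which opens the mitochondrial membrane in apoptosis, stood at 4.13 and 6.20, a log2 ratio of 0.59 (0.51 to 0.67), and was found in 94.3% and 97.2% of members. Phlda3, an inhibitor of AKT, stood at 0.759 and 1.34 (log2 0.82, 0.64 to 1.00), and Ccng1, a cyclin G gene, at 0.691 and 1.22 (log2 0.82, 0.63 to 1.01).

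Of 19 measured p53 targets, 5 (these and Gtse1) were higher in Rad members by 1.5-fold and none was lower, beside 4.74% and 7.77% of all genes, and 16 had a log2 ratio above 0, with a median of 0.40. Gtse1 rested on 23 and 53 UMIs, with a log2 ratio of 0.71 (-0.28 to 1.77). Mdm2, which degrades p53, stood at 1.05 and 1.19, and the death receptor gene Fas at 1.44 and 1.34. The median of the same 19 genes over all other kept cells was 0.02, with Bax at 0.37, Phlda3 at 0.13 and Ccng1 at 0.32 there. In the S100a8/S100a9, dividing and Aire-low sets, the log2 ratio was 0.31, 0.36 and 0.51 for Bax, 0.41, 0.89 and 0.44 for Phlda3, and 0.11, 0.53 and 0.53 for Ccng1. Without the highest 1% of cells of each gene, 7 of the 19 were higher, with Plk2 and Ddit4 added, and none was lower. Of all 11965 genes in that setting, 292 were higher and 634 lower. Cdkn1a then had a log2 ratio of 1.72.

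A Cdkn1a UMI was found in 20.2% of thinned Contl members (16.6 to 24.3) and 39.8% of thinned Rad members (36.2 to 43.5), and in 41.6% and 57.8% without thinning. Tuft-limit cells had it in 64.6% and 73.3% and dividing cells in 7.95% and 15.8%, thinned alike. Its log2 ratio, Rad over Contl, was 0.72 (0.53 to 0.90) in the S100a8/S100a9 set, 2.03 (1.57 to 2.53) in the dividing set, 0.51 (0.36 to 0.66) in the Aire-low set and 0.27 (0.21 to 0.32) in all other kept cells. By Aire band it stood at 1.40, 0.813 and 0.557 per 10000 in Contl members and at 3.02, 2.77 and 3.11 in Rad members. It was thus lower in Contl cells with more Aire and had no such order in Rad cells.

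**Figure D5:**
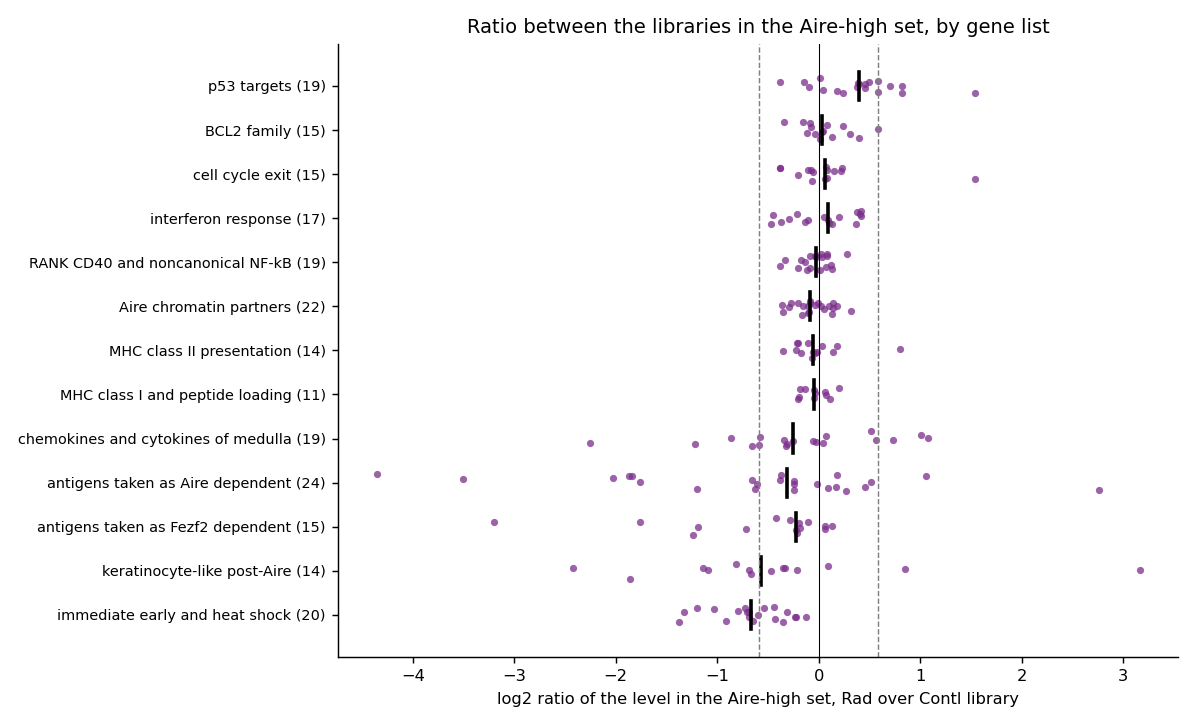
log2 ratio of each gene's level in the members, Rad over Contl (x axis), for the measured genes of 13 lists (rows, number of genes in brackets), with black bars at the list medians and dashed lines at 1.5-fold. The p53 targets have a median of 0.40 with Cdkn1a at 1.54, and all 20 immediate early and heat shock genes lie below 0.

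Immediate early and heat shock genes, which cells switch on within minutes of a stimulus or stress, were lower in the Rad library. All 20 had a log2 ratio below 0, and 12 were lower by 1.5-fold, beside 7.77% of all genes, with a median of -0.66. Fos stood at 3.16 per 10000 in Contl and 1.54 in Rad members (log2 -1.04, -1.16 to -0.91), Egr1 at 2.74 and 1.57 and the chaperone gene Hspa1b at 5.79 and 3.51. The difference was not confined to the members, since the median of these genes over all other kept cells was -0.93 and the Fos ratio there was -1.46.

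Counts of antigen presentation genes past 1.5-fold between the libraries stand here beside 4.74% of all genes higher in Rad members and 7.77% lower. Of 14 class II genes only Ctsl, which encodes the protease cathepsin L, passed 1.5-fold. It stood at 1.11 per 10000 in Contl and 1.93 in Rad members, a log2 ratio of 0.80. That ratio was 0.54, short of 1.5-fold, without the highest 1% of its cells, and 0.83 with members thinned. Without its 5 highest cells it still passed. Cd74, the invariant chain, stood at 255 and 245. None of 11 class I genes, 22 genes of the chromatin partners of Aire, 19 genes of RANK, CD40 and NF-kB signalling or 17 interferon response genes passed 1.5-fold in either direction. Of 11 costimulatory and checkpoint genes, 1 was higher (Pdcd1lg2) and 1 lower (Tnfsf9), beside the same 4.74% and 7.77%, with a median of -0.05. Pdcd1lg2, the checkpoint ligand PD-L2, stood at 0.322 and 0.603, a log2 ratio of 0.90 (0.62 to 1.19), and Tnfsf9, the ligand of 4-1BB, at 0.427 and 0.256, a ratio of -0.74 (-1.05 to -0.42).

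Chemokine and cytokine genes differed in both directions, 3 of 19 higher and 5 lower beside 4.74% and 7.77% of all genes, with a median of -0.25. Ccl25 stood at 7.17 per 10000 in Contl members (6.99 to 7.35) and 4.56 in Rad members (4.44 to 4.68), a log2 ratio of -0.65, and was found in 54.3% and 46.8% of them. The ratio was -0.72 in the Aire-low set, -0.07 in the S100a8/S100a9 set and 0.52 in all other kept cells. Ccl5, a chemokine of effector T cells, stood at 5.89 and 3.24 (log2 -0.86), but at -0.31 without the highest 1% of its cells, which held 53.1% of its UMIs in the Contl library. Ccl21a stood at 2.08 and 3.47 (log2 0.74).

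Antigen genes differed in both directions. Of the 24 Aire-dependent antigens 2 were higher and 10 lower in Rad members, beside 4.74% and 7.77% of all genes, with a median of -0.31. Without the highest 1% of cells 4 of 18 were higher and 3 lower, beside 292 and 634 of all 11965 genes. Csn2 had a log2 ratio of -0.02 (-0.07 to 0.03). Gcg stood at 0.517 and 0.141 per 10000, and a single Contl cell held 44.2% of its Contl UMIs. Of 14 keratinocyte-like genes 7 were lower and 2 higher, and without the highest 1% of cells 2 of 8 were lower and none higher.

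Transcripts named for other cells were also measured. The 18 thymocyte genes summed to 1.64 per 10000 in Contl and 1.35 in Rad members, against 2.57 and 3.29 in all other kept cells, with Thy1 the most abundant, and 7 of 15 measured were lower in Rad members and none higher, beside 7.77% and 4.74% of all genes in this and the counts that follow. The 15 dendritic, macrophage and B cell genes summed to 7.59 and 7.15, above the 3.30 and 2.60 in all other kept cells, and Lyz2, a lysozyme gene, made up 6.43 and 5.81. Of 9 measured, 3 were higher in Rad members (C1qa, Adgre1 and Cd79a) and 1 was lower (Itgam). The 6 erythroid genes summed to 0.241 and 0.464, led by Hba-a2, against 0.126 and 0.173 in all other kept cells, and 3 of 5 (Hba-a1, Hba-a2 and Hbb-bt) were higher in Rad members. The 10 genes of endothelium and mesenchyme summed to 1.29 and 1.82, led by Acta2, against 5.16 and 5.50 in all other kept cells, and 3 of 6 (Col1a1, Col1a2 and Col3a1) were higher. Ptprc, which encodes the CD45 that the sort excluded, stood at 0.0600 and 0.0354. Their part in the differences between the libraries was not tested.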

How the data were processed

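TECs were sorted and run on droplet 3′ single-cell RNA-seq. The authors deposited raw UMI counts per gene and barcode for each library, made with Cell Ranger (5.0.1 in the file header, 5.1 in the submitters' notes). Cells with over 2000 and under 7500 detected genes and under 15% mitochondrial UMIs were kept. Doublets were limited only by the upper gene limit. The members and the gene lists were chosen with earlier results of these data known. Counts were summed over each set per library, with exact Poisson or Clopper-Pearson 95% intervals, and log2 ratios (0.5 UMIs added) had ranges from opposite interval ends. Past 1.5-fold was called among genes with at least 50 UMIs in the members of both libraries together, also where members were set against other sets. With 1 library per condition no test was made. Cells were thinned to 4000 UMIs where shares of cells are given, and no member was left out.

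Named genes came from 30 lists (447 genes, with 2 more entries unmatched) and from fixed rankings: the 10 genes furthest above and below each nearest set (1 per 10000 or more), the 10 furthest above all other cells, the 10 highest and lowest between libraries (200 UMIs or more) and the 10 with the highest variance over mean (by the smaller of the libraries' values). Some genes that these rankings name are not reported here. The log2 ratio between the libraries was checked on simulated Poisson counts, which lack the uneven spread over cells seen in the members. Alternatives changed the limits, the filter, the thinning and single cells or replaced sums by means over cells. Python 3.11.15, numpy 2.4.6, scipy 1.17.1, pandas 2.3.3 and matplotlib 3.10.9 were used.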

Additional observations from a re-analysis of the deposited data

Results flagged for a closer look

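Among barcodes left out by the limits on detected genes and mitochondrial UMIs, 150 of 1704 in the Contl library (8.80%) and 254 of 2097 in the Rad library (12.1%) met the limits on Aire and the other genes. They had a median of 2157.5 and 2096 UMIs, of 851.5 and 856.5 detected genes and of 21.8% and 19.2% mitochondrial UMIs. At that depth very few Aire UMIs meet the limit and a lack of the other genes says little, so these barcodes cannot be counted as members.

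Some genes had opposite directions between the libraries in the members and in a nearest set, past 1.5-fold in each. These differences were not tested, and most rest on few cells. Against the S100a8/S100a9 set, the log2 ratios (Rad over Contl) in the members and in that set were -1.14 and 1.13 for Lor, -4.36 and 1.98 for Mup4, -2.42 and 1.81 for Cnfn, and -1.11 and 1.48 for Ltf, genes of cornified skin, liver, cornified skin and secretions. They were 1.01 and -0.81 for the collagen gene Col1a1 and 1.17 and -0.85 for the macrophage gene Adgre1. Of the Lor UMIs in Contl members, 93.7% were in 1 cell. Against the dividing set, Apoa4, an intestinal apolipoprotein, had -1.20 in the members and 1.94 on 6 and 46 UMIs in dividing cells. Fgb, a fibrinogen chain, had -3.20 in the members and went from 0 to 53 UMIs in dividing cells.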

How the results depend on the processing

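The log2 ratio of the members' share stayed between 0.01 and 0.13 under the 10 alternatives run. The order of the Aire level between the libraries was not stable: it was slightly higher in Rad members as reported, and slightly higher in Contl members with Aire at 4 or more and at 8 or more. The share of Rad cells was 15.3% with Aire at 4 or more, 11% at 8 or more, 12.8% with S100a8 plus S100a9 under 1 and 15.0% under 4, and the share of Contl cells was 10.1% with Aire at 8 or more. The Aire level in Contl and Rad members was 12.70 and 12.69 per 10000 with Aire at 4 or more, 15.5 and 15.3 at 8 or more, and 12.3 and 12.8 with the limits applied after thinning. As a mean over cells it was 13.7 in the Rad library. Genes past 1.5-fold between the libraries numbered 436 with at least 200 UMIs, 9102 with at least 1 UMI and 913 with members thinned to 4000 UMIs. Without the 5 highest cells of each gene there were 952, and the balance turned, with 605 higher and 347 lower in the Rad library (63.6% higher) against 664 and 1089 before (37.9%). Since 5 cells are a larger share of the Contl members, the highest 1% was left out in turn, which gave 926, with 292 higher and 634 lower. These settings on single cells and on thinned members were chosen after seeing the data. No paired analysis was possible because each condition had 1 library, and no replicate could be left out.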
